A study of Mus musculus with 18 samples.

Results

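The genes described here encode the enzymes and regulators of sterol and fatty acid synthesis. They were chosen by symbol, as 30 genes of the pathway, and read through the probe annotation of the array. Of these 30, 27 had at least 1 probe, 45 probes in all, and 26 had a probe that passed the detection filter and entered the test, among 10902 genes tested in the series. Hmgcs1, Fdft1 and Acat2, which encode an early mevalonate enzyme, squalene synthase and a thiolase, were not matched to a probe and were not analysed here. Acaca, the acetyl-CoA carboxylase gene, was detected on 0 of 18 arrays and was not tested.

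Cells build cholesterol from acetyl-CoA through the mevalonate pathway, which ends in farnesyl units, and through the sterol branch, which joins these units into squalene and closes and trims the ring. The SREBP transcription factors, encoded by Srebf1 and Srebf2, switch on most of these genes when sterols are low. The carrier SCAP then escorts SREBP from the endoplasmic reticulum to the Golgi for cleavage, and the INSIG proteins hold SCAP back when sterols are plentiful. Insig1 is itself an SREBP target, so its mRNA is widely read as a sign of SREBP activity.

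The study crossed genotype with time on Illumina mouse arrays of total RNA from primary male embryonic fibroblasts of the C57BL/6 strain, taken from littermate embryos at day 13.5 and grown in medium with serum. Knockout cells, which lack the nuclear ERK phosphatase DUSP5 by their label, were measured at 0 h, 1 h and 3 h of the phorbol ester TPA at 100 ng/ml, and wild-type cells at the same times, with 3 arrays in each of the 6 groups. TPA activates protein kinase C and through it ERK. There was no group with solvent alone, and the allele and the deleted part of Dusp5 are not given in the sources used here. The labels do not say whether the arrays of a group came from separate embryos or cultures, so the p-values reflect just the spread among these arrays, and that spread may be technical.

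Each array had 16675 to 18348 probes with a detection p-value below 0.05, and arrays of a group correlated at 0.991 to 0.996. Dusp5 signal was lower in knockout than in wild-type cells at each time, by −0.89 at 0 h (log2, limma adjusted p = 6.72e-06), −0.97 at 1 h and −0.65 at 3 h, without being lost. It rose at 1 h in knockout cells by 1.87 (3.65-fold, adjusted p = 7.4e-12) to a mean level of 10.18, above the 9.20 of untreated wild-type cells. The probe's place relative to the deleted part was not examined. All 8 fibroblast markers looked for were detected on all 18 arrays, and none of 6 hepatocyte markers passed the filter. Of the adipocyte markers with a probe Adipoq, Fabp4, Plin1 and Cidec did not pass, and Pparg, Cebpa (detected on 3 of 18 arrays) and Lpl did. The macrophage markers Csf1r, Adgre1, Lyz2 and Cd14 were detected on all arrays, but Ptprc, the pan-leukocyte marker, did not pass. The summed linear signal of those 4 macrophage genes was 571 to 687 in knockout cells at 0 h, 658 to 757 at 1 h and 680 to 801 at 3 h, and 615 to 774, 697 to 728 and 698 to 748 in wild-type cells at the same times. These values and those of the markers below include the 16 added to each intensity, which narrows the ratios between them. The 3 adipocyte genes summed to 212 to 254, 209 to 263 and 228 to 256 in knockout cells, and to 200 to 235, 205 to 234 and 200 to 230 in wild-type cells. Of the neural markers with a probe Nes and Sox2 (detected on 4 of 18 arrays, 3 of them of knockout cells at 3 h) passed and Tubb3 and Sox10 did not, and the summed signal of Nes and Sox2 was 349 to 406, 436 to 477 and 466 to 600 in knockout cells and 310 to 348, 334 to 346 and 315 to 383 in wild-type cells. The epithelial markers Krt8, Krt18 and Cdh1 passed (Epcam, Krt5 and Krt14 did not) and summed to 97.5 to 104, 108 to 116 and 131 to 144 in knockout cells and to 102 to 131, 102 to 138 and 148 to 159 in wild-type cells. Of 4 endothelial markers Kdr passed, at 29.6 to 34.9, 25.4 to 30.7 and 22.4 to 25.6 in knockout cells and 22.4 to 27, 24 to 29.2 and 22.3 to 31.3 in wild-type cells, and Pecam1, Cdh5 and Tie1 did not. Any part of these in the results below was not tested. In bulk RNA, fewer cells of a type and less RNA per cell cannot be told apart.

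Levels below are normalized log2 intensities, and differences are log2 differences with standard errors from 1 linear model over all 18 arrays. Each gene was read by its brightest probe that passed the filter, unless another probe is named. A gene was called when its p-value, adjusted by Benjamini-Hochberg over all 10902 tested genes within a comparison, was below 0.05. Of the 26 tested genes, 22 were detected on every array. Fasn, the fatty acid synthase gene, was detected on 5 of 18 arrays, Sc5d, the sterol desaturase gene, on 8, Srebf1 on 14 and Tm7sf2, a sterol reductase gene, on 15. For these 4 genes the levels lie near background and small differences could not be resolved.

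After 1 h of TPA, on the brightest probe of each gene, the sterol-handling genes Stard4, Insig1 and Cyp51 were higher in knockout cells. Stard4 was higher in wild-type cells as well. These were 3 of 26 genes in knockout cells, all called higher, against 2.56% of all tested genes called higher and 5.41% in either direction. In wild-type cells 1 of 26 was called, against 1.88% higher and 3.38% in either direction. That count leaves out Insig1, whose dimmer probes ILMN_2606693 and ILMN_1245272 were called higher in wild-type cells too. They rose by 0.69 and 0.60 (limma adjusted p = 5.99e-04 and 0.00615 over the probes). On the brightest probes no tested gene of the pathway was called lower at 1 h, where 2.85% of all genes were lower in knockout and 1.5% in wild-type cells. A dimmer Fdps probe was called lower in wild-type cells (−0.65, limma adjusted p = 5.60e-04 over the probes). The median difference of the 26 genes was 0.10 in knockout cells and 0.02 in wild-type cells, where that of all tested genes was −0.02 and −0.01.

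Stard4, which encodes a carrier that moves cholesterol between membranes and is a known SREBP2 target, had the largest 1 h difference of the 26 genes, each read by its brightest probe. In knockout cells its level on the 3 arrays was 7.45, 7.48 and 7.77 at 0 h, 8.30, 8.33 and 8.46 at 1 h, and 7.53, 7.88 and 7.66 at 3 h. Wild-type values were 7.84, 7.78 and 7.36 at 0 h, 8.32, 8.32 and 8.27 at 1 h, and 7.67, 7.89 and 7.98 at 3 h. In both genotypes every 1 h array lay above every array of the other times. The 1 h difference was 0.80 ± 0.13 in knockout cells (1.74-fold, limma adjusted p = 2.98e-04) and 0.64 ± 0.13 in wild-type cells (1.56-fold, adjusted p = 0.00425). Between 1 h and 3 h Stard4 fell by 0.67 in knockout cells (adjusted p = 8.63e-04) and by 0.46 in wild-type cells (adjusted p = 0.0256). At 3 h it was not distinguishable from 0 h, with 0.12 (95% interval −0.14 to 0.39) in knockout cells and 0.18 (−0.08 to 0.45) in wild-type cells. The calls in knockout cells held in all 17 alternative settings each, and the wild-type rise in 16 of 17, the exception being scaling to the median of all probes (0.34, adjusted p = 0.129). The later wild-type fall was not called without any one of wild-type 1 h arrays 1, 2 or 3 or wild-type 3 h arrays 1 or 2 (adjusted p = 0.051 to 0.138).

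**Figure D1:**
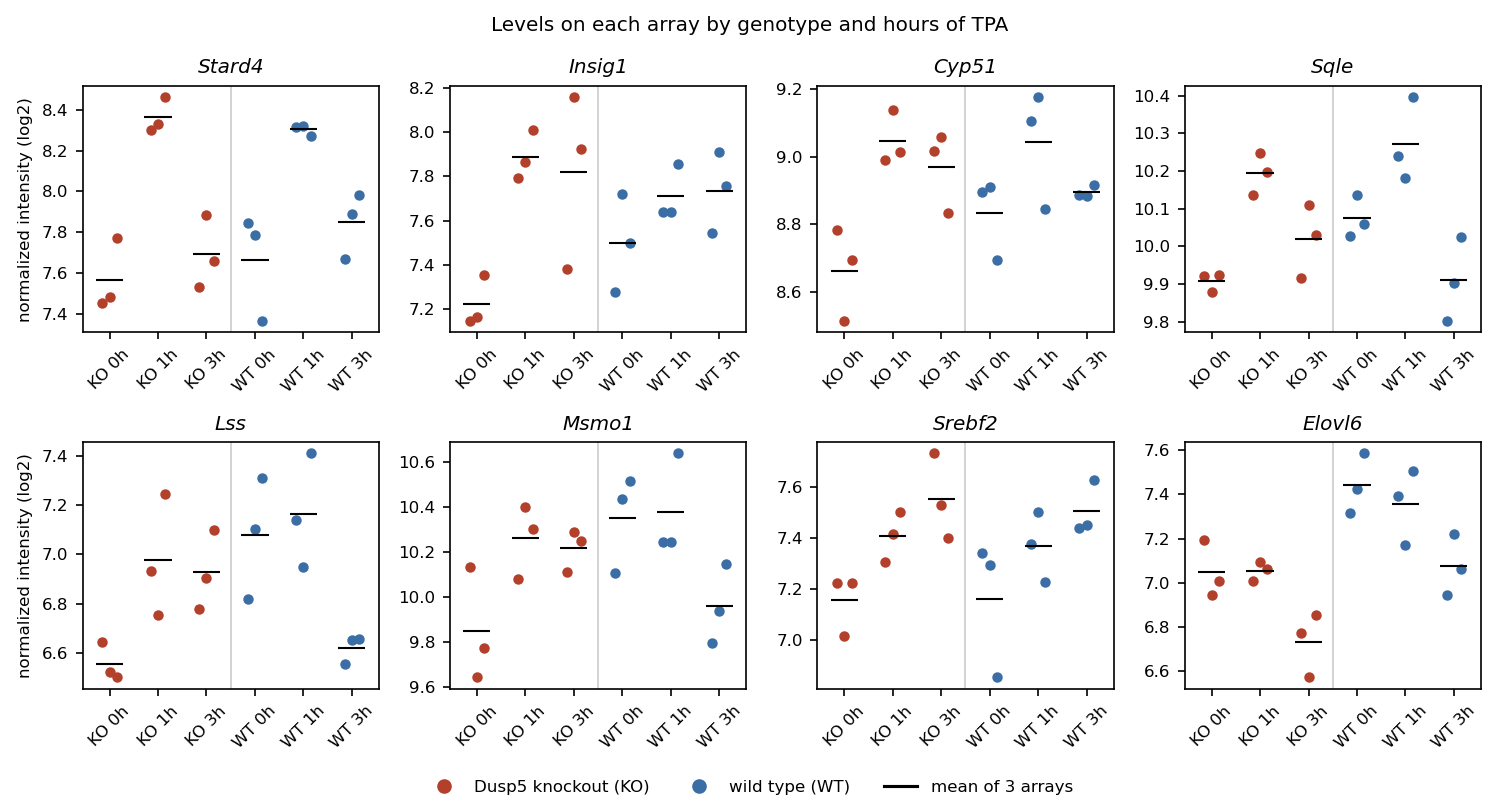
Normalized log2 intensity of 8 genes on each array, by genotype and hours of TPA, with knockout arrays in red, wild-type arrays in blue and a bar at the mean of 3 arrays. Stard4 stands highest at 1 h in both genotypes, at 8.27 to 8.46 against 7.36 to 7.98 on all other arrays.

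Insig1 encodes the endoplasmic reticulum protein that retains SCAP, and 3 of its 4 probes were detected on all 18 arrays. On its brightest probe the level in knockout cells was 7.15, 7.17 and 7.36 at 0 h, 7.79, 7.86 and 8.01 at 1 h, and 7.38, 8.16 and 7.92 at 3 h. In wild-type cells that probe read 7.28, 7.72 and 7.50 at 0 h, 7.64, 7.64 and 7.86 at 1 h, and 7.54, 7.91 and 7.75 at 3 h. The knockout arrays of 1 h and of 3 h all lay above those of 0 h, and the wild-type groups overlapped. Insig1 rose in knockout cells by 0.67 ± 0.16 at 1 h (1.59-fold, limma adjusted p = 0.0109) and by 0.60 ± 0.16 at 3 h (1.51-fold, adjusted p = 0.00914). The wild-type differences of 0.21 ± 0.16 (adjusted p = 0.648) and 0.24 ± 0.16 (adjusted p = 0.35) were not called. The knockout call was lost at 1 h without knockout 0 h array 1 or knockout 1 h array 3 (adjusted p = 0.056 and 0.0614), at 3 h without knockout 3 h array 2 (0.43, adjusted p = 0.0694), and at both times with scaling to the median of all probes.

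The other detected Insig1 probes gave a sharper 1 h response in both genotypes. Probe ILMN_2606693 read 6.88, 6.92 and 7.07 at 0 h, 7.79, 7.98 and 7.88 at 1 h, and 7.41, 7.69 and 7.36 at 3 h in knockout cells. Wild-type arrays read 7.19, 7.29 and 7.10 at 0 h, 7.99, 7.95 and 7.71 at 1 h, and 7.40, 7.12 and 7.23 at 3 h. In each genotype its 1 h arrays all lay above its 0 h arrays, and the wild-type 3 h arrays overlapped those of 0 h. With p-values adjusted over all kept probes with a single symbol, its 1 h rise was 0.93 in knockout cells (limma adjusted p = 8.89e-06) and 0.69 in wild-type cells (adjusted p = 5.99e-04). Probe ILMN_1245272 rose by 0.92 (adjusted p = 3.34e-05) and 0.60 (adjusted p = 0.00615). Between 1 h and 3 h ILMN_2606693 fell by 0.39 in knockout cells (adjusted p = 0.0253) and by 0.63 in wild-type cells (adjusted p = 7.20e-04). ILMN_1245272 read −0.27 in knockout cells (adjusted p = 0.202, not called) and fell by 0.55 in wild-type cells (adjusted p = 0.00569), where the brightest probe read 0.02. At 3 h both were still above 0 h in knockout cells, by 0.53 (adjusted p = 0.00195) and 0.65 (adjusted p = 7.19e-04), and stood at 0.05 each in wild-type cells. Which Insig1 transcripts each probe reads was not examined. The difference between the genotypes in the 3 h response was 0.36, 0.48 and 0.60 on the 3 probes and was not called on any (adjusted p = 0.661, 0.347 and 0.245).

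**Figure D2:**
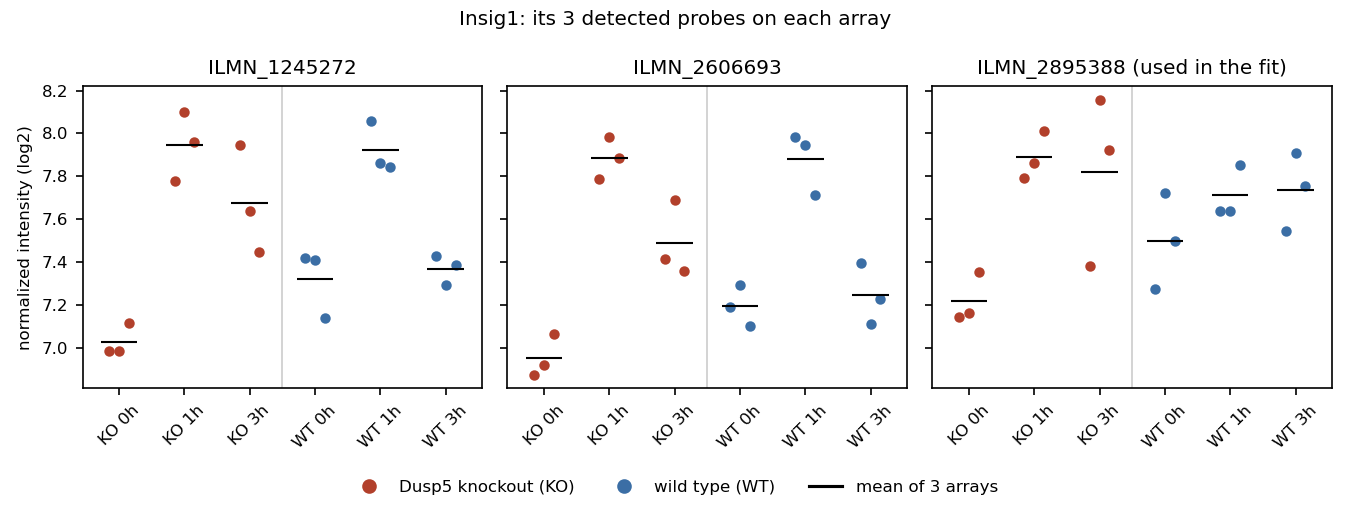
Normalized log2 intensity of the 3 detected Insig1 probes on each array, by genotype and hours of TPA, with a bar at the mean of 3 arrays. The means of ILMN_1245272 and ILMN_2606693 peak at 1 h in both genotypes, and that of ILMN_2895388, the brightest, stays near its 1 h level at 3 h.

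With each enzyme of the sterol branch read by its brightest probe, Cyp51 was the 1 enzyme called at 1 h, in knockout cells. Cyp51, the lanosterol demethylase gene, was 8.78, 8.51 and 8.69 at 0 h, 8.99, 9.14 and 9.02 at 1 h, and 9.02, 9.06 and 8.83 at 3 h in knockout cells. The wild-type levels were 8.89, 8.91 and 8.69 at 0 h, 9.10, 9.18 and 8.85 at 1 h, and 8.89, 8.88 and 8.92 at 3 h. The knockout arrays at 1 h and 3 h all lay above those at 0 h, while the wild-type groups overlapped. It rose in knockout cells by 0.39 ± 0.10 at 1 h (1.31-fold, limma adjusted p = 0.0327) and 0.31 ± 0.10 at 3 h (1.24-fold, adjusted p = 0.0467), and the wild-type values of 0.21 and 0.06 were not called (adjusted p = 0.409 and 0.748). Both calls lay near the threshold and were lost with the compared arrays alone and with scaling to the median of all probes, and the 3 h call also with array weights (0.24, adjusted p = 0.0759). The 1 h call was also lost without any one of knockout 0 h arrays 2 or 3 or knockout 1 h arrays 1, 2 or 3 (adjusted p = 0.0577 to 0.169), and the 3 h call without any one of knockout 0 h arrays 2 or 3 or knockout 3 h arrays 1 or 2 (adjusted p = 0.088 to 0.213).

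Sqle encodes squalene epoxidase, a rate-limiting step of the branch. Its level in knockout cells was 9.92, 9.88 and 9.92 at 0 h, 10.13, 10.25 and 10.20 at 1 h, and 9.92, 10.11 and 10.03 at 3 h. Wild-type values were 10.03, 10.14 and 10.06 at 0 h, 10.24, 10.18 and 10.40 at 1 h, and 9.80, 9.90 and 10.03 at 3 h. The 1 h arrays lay above the 0 h arrays in each genotype, but the differences of 0.29 ± 0.09 in knockout (limma adjusted p = 0.0732) and 0.20 ± 0.09 in wild-type cells (adjusted p = 0.339) were not called. In the alternative settings the knockout difference was called in 6 of 17 and the wild-type difference in 0 of 17. The later fall of Sqle was called: in wild-type cells it dropped by 0.36 ± 0.09 between 1 h and 3 h (adjusted p = 0.0106), and its other kept probe dropped by 0.45 (adjusted p = 0.00676 over the probes). The call was lost without wild-type 1 h array 3 or wild-type 3 h array 1 (adjusted p = 0.07 and 0.0689), and with the compared arrays alone (adjusted p = 0.0557).

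Lss encodes lanosterol synthase, which closes the sterol ring, and its difference between the genotypes turned in sign between 0 h and 3 h, with neither difference called. In knockout cells it was 6.64, 6.52 and 6.50 at 0 h, 6.93, 6.75 and 7.24 at 1 h, and 6.78, 6.90 and 7.10 at 3 h. Wild-type arrays read 6.82, 7.11 and 7.31 at 0 h, 7.14, 6.95 and 7.41 at 1 h, and 6.55, 6.65 and 6.66 at 3 h. The knockout arrays lay below the wild-type arrays at 0 h and above them at 3 h. Lss fell in wild-type cells by 0.46 ± 0.14 at 3 h against 0 h (limma adjusted p = 0.0301) and by 0.54 ± 0.14 between 1 h and 3 h (adjusted p = 0.0144), and the knockout differences from 0 h of 0.42 at 1 h and 0.37 at 3 h were not called (adjusted p = 0.0981 and 0.0734). The difference between the genotypes in the 3 h response was 0.83 ± 0.20 (95% interval 0.41 to 1.24) and missed the threshold at adjusted p = 0.0939. That difference was called in 5 of 23 alternative settings. A dimmer Lss probe, detected on 15 of 18 arrays, did not follow, with 0.47 in wild-type cells at 3 h (adjusted p = 0.0893) and a genotype difference in response of −0.39 (adjusted p = 0.676). The wild-type 3 h call was lost without any one of wild-type 0 h arrays 2 or 3 or wild-type 3 h arrays 1, 2 or 3 (adjusted p = 0.0604 to 0.18), and the fall between 1 h and 3 h without wild-type 1 h array 3 or wild-type 3 h array 1 (adjusted p = 0.102 and 0.0595). Neither was called with the 2 kept Lss probes averaged (0.01 and −0.03). The wild-type 3 h call against 0 h was lost with no detection filter too (adjusted p = 0.0528).

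Msmo1, the sterol methyl oxidase gene that acts after Cyp51, differed between the groups by amounts close to those of Lss, with no call in the reported fit. In knockout cells it was 10.13, 9.64 and 9.78 at 0 h, 10.08, 10.40 and 10.30 at 1 h, and 10.11, 10.29 and 10.25 at 3 h. The wild-type levels were 10.11, 10.44 and 10.52 at 0 h, 10.25, 10.25 and 10.64 at 1 h, and 9.80, 9.94 and 10.15 at 3 h. Knockout array 1 at 0 h overlapped the wild-type arrays, and the other 2 lay below them. The difference in 3 h response was 0.76 ± 0.20 (95% interval 0.33 to 1.19, limma adjusted p = 0.159). It was called in 2 of 23 alternative settings.

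Idi1, the isopentenyl diphosphate isomerase gene of the mevalonate pathway, had the largest 1 h difference in knockout cells after those of Stard4 and Insig1. It was 5.02, 5.16 and 5.26 at 0 h, 5.50, 5.56 and 5.73 at 1 h, and 5.05, 5.25 and 5.26 at 3 h in knockout cells, so that the 1 h arrays lay above all others of that genotype. Wild-type values were 5.25, 5.24 and 5.52 at 0 h, 5.08, 5.78 and 5.21 at 1 h, and 5.21, 4.96 and 5.07 at 3 h, with 1 array apart at 1 h. The knockout difference of 0.45 ± 0.14 was not called (limma adjusted p = 0.0764). The mevalonate genes Mvk, Pmvk, Mvd and Fdps encode the kinases, the decarboxylase and farnesyl diphosphate synthase. On their brightest probes they were not called in any comparison, and their differences from 0 h ranged from −0.29 to 0.32. A dimmer Fdps probe was called lower in wild-type cells, by −0.65 at 1 h and −0.35 at 3 h (adjusted p = 5.60e-04 and 0.0337 over the probes). Nsdhl, Hsd17b7, Ebp, Dhcr7, Sc5d and Tm7sf2, which trim the sterol ring, were not called on these probes either, with differences from 0 h between −0.31 and 0.30. The dimmest kept Nsdhl probe was called higher at 1 h in knockout cells (0.37, adjusted p = 0.047 over the probes).

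Over the 15 tested mevalonate and sterol enzymes, 11 were above 0 h at 1 h in knockout cells and 12 in wild-type cells, where 44% and 48.4% of all tested genes were above 0 h. From 1 h to 3 h, 11 of the 15 were lower in knockout and 12 in wild-type cells, where 50.1% and 52.3% of all tested genes were higher. Both sets of comparisons share the 1 h arrays, so nothing is read from the 2 together. The mean log2 level of the 15 enzymes in knockout cells was 7.26, 7.21 and 7.15 at 0 h, 7.29, 7.39 and 7.37 at 1 h, and 7.24, 7.32 and 7.28 at 3 h. Wild-type arrays read 7.32, 7.31 and 7.36 at 0 h, 7.34, 7.39 and 7.38 at 1 h, and 7.22, 7.21 and 7.21 at 3 h. The knockout arrays lay below the wild-type arrays at 0 h, overlapped them at 1 h and lay above them at 3 h. These spans are narrow, and the mean is given as a description with no test.

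**Figure D3:**
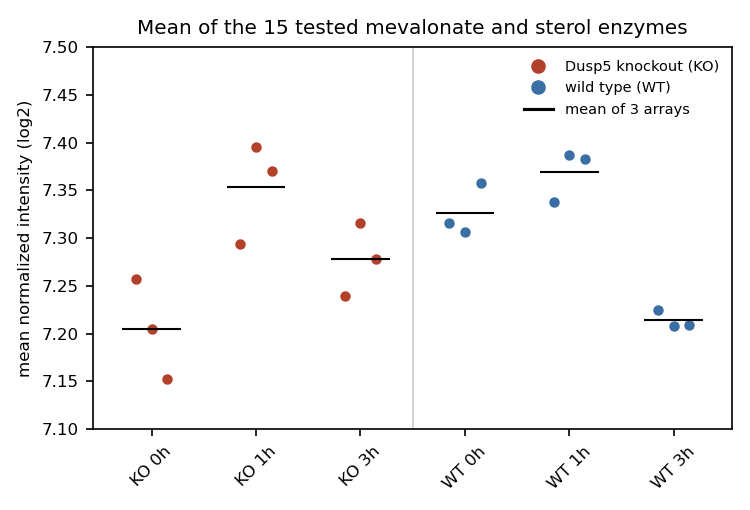
Mean normalized log2 intensity of the 15 tested mevalonate and sterol enzymes on each array, by genotype and hours of TPA, with a bar at the mean of 3 arrays; the axis does not start at 0. Wild-type 3 h arrays, at 7.21 to 7.22, lie below wild-type 0 h arrays, at 7.31 to 7.36.

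The promoters of Insig1, Cyp51 and Lss are shown so that the retention factor and the called ring-closing and ring-trimming enzymes can be set beside each other, with letters from the RefSeq table (GRCm38.p6). Each runs from 250 bases before to 50 bases after the annotated start, read 5′ to 3′ on the gene's strand. Insig1 lies at chr5:28071162-28071461 (plus strand), Cyp51 at chr5:4104648-4104947 (minus strand) and Lss at chr10:76531355-76531654 (plus strand). Capitals mark matches to 4 motifs, each on both strands, of factors known to act with or as SREBP on such promoters. These are the sterol regulatory element core TCACNCCAC, the E-box CACGTG, the NF-Y box CCAAT and the Sp1 box GGGCGG, and no matches shown here overlap.
Insig1: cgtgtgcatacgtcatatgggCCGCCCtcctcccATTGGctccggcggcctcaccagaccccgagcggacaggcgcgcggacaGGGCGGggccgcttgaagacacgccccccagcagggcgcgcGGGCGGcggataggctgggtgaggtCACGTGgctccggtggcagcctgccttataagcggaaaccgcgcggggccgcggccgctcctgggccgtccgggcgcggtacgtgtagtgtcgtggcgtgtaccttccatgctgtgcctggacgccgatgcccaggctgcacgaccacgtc
Cyp51: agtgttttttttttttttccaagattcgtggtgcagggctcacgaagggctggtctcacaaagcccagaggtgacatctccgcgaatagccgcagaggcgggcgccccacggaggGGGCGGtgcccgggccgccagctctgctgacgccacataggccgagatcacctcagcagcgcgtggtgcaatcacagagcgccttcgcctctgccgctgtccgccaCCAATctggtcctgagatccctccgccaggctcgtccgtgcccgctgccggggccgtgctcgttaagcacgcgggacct
Lss: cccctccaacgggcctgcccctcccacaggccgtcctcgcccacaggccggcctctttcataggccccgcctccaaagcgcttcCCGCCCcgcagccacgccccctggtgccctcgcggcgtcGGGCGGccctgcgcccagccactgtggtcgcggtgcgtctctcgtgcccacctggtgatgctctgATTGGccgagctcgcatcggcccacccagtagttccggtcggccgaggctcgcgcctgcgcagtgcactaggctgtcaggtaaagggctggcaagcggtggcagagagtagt

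Insig1 held an E-box 101 bases before the start, an NF-Y box at 216 and Sp1 boxes at 229, 167 and 126. Cyp51 held an NF-Y box 29 bases before the start and an Sp1 box at 135, and Lss an NF-Y box at 62 and Sp1 boxes at 166 and 127. Among the 21 tested genes of the pathway with a promoter in the table, 19 held the NF-Y box in at least 1 promoter, or 90.5%, against 42.8% of 8823 tested genes and 37.4% of all 32851 promoters. The Sp1 box was in 18 of 21, against 67.9% of the tested genes and 35.7% of all promoters. The E-box was in 5 of 21 (Dhcr7, Hsd17b7, Insig1, Sc5d and Scap), against 11.9% and 7.15%. The exact sterol element core was in 0 of 21, against 1.35% of tested genes and 1.24% of all promoters, and it was present in the promoter of Hmgcs1, which was not tested. A match describes letters in a window and is not a binding site.

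With each gene read by its brightest probe, Insig1, Cyp51 and Srebf2 were higher at 3 h in knockout cells. Lss and Elovl6 were lower at 3 h in wild-type cells, and no difference between these responses was itself called. In knockout cells 3 of 26 genes were higher and 0 lower, where 8.25% of all tested genes were higher and 10.1% lower, 18.4% in all. The wild-type counts were 0 higher and 2 lower, where 7.81% were higher and 8.19% lower, 16% in all. The median difference of the 26 genes was then 0.04 in knockout and −0.05 in wild-type cells, against −0.02 and 0.01 over all tested genes. Markers of other cell types also moved at 3 h. In knockout cells 1 of 4 macrophage genes (Cd14, 0.52), 1 of 3 adipocyte genes (Pparg, 0.48), 1 of 3 epithelial genes (Krt18, 0.71) and the neural gene Nes (0.47) were called higher, and the 1 endothelial gene (Kdr, −0.38) lower (limma adjusted p = 4.14e-04 to 0.0476). Sox2 read 0.53, but it was detected on 3 of 3 knockout arrays at 3 h and on 0 of 3 at 0 h. It passed the filter through the 3 h arrays where it is high, so its call is not counted. In wild-type cells 1 of 4 macrophage genes (Cd14, 0.62) and 1 of 3 epithelial genes (Krt18, 0.56) were called higher (adjusted p = 2.27e-04 and 0.00472), and no adipocyte, endothelial or neural gene was called. Of the 8 fibroblast genes Pdgfra (0.92) and Dcn (0.33) were higher in knockout cells and Pdgfra (0.74) in wild-type cells. The part of these in the counts of pathway genes was not tested. Between 1 h and 3 h, with each gene read by its brightest probe, Stard4 alone was called lower in knockout cells (1 of 26, against 6.45% of all genes lower and 13.9% in either direction), and Stard4, Sqle and Lss in wild-type cells (3 of 26, against 4.8% and 10.2%), and none was called higher, where 7.48% and 5.43% of all genes were.

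**Figure D4:**
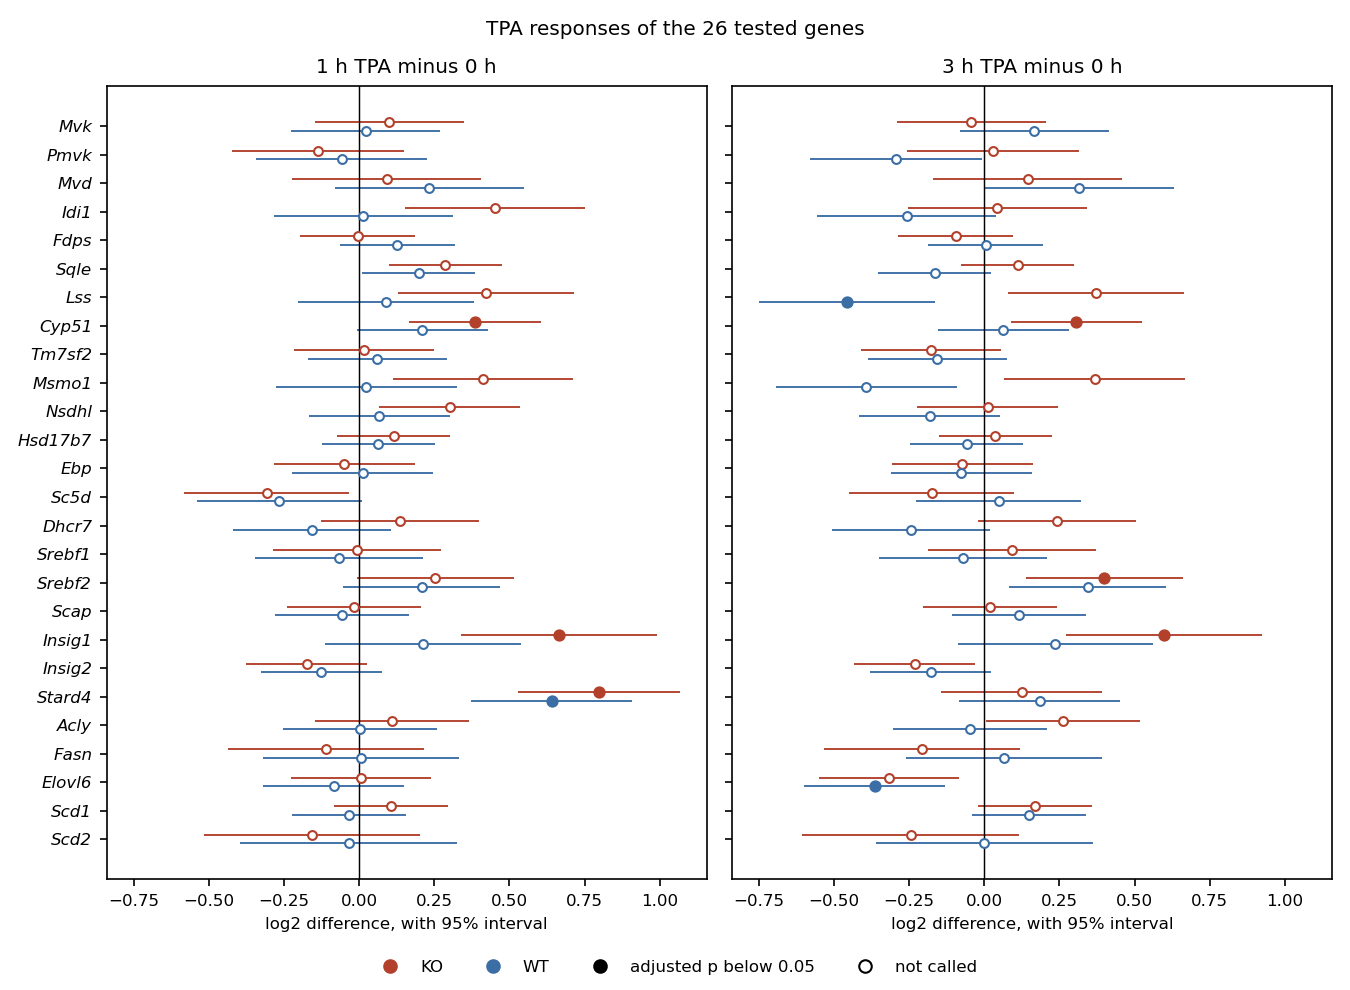
Log2 difference from 0 h of the 26 tested genes after 1 h (left) and 3 h (right) of TPA, with knockout cells in red above wild-type cells in blue and bars for 95% intervals. Filled points are called at adjusted p below 0.05: Cyp51, Insig1 and Stard4 at 1 h in knockout cells, with Stard4 also in wild-type cells, and Cyp51, Srebf2 and Insig1 (knockout, higher) and Lss and Elovl6 (wild type, lower) at 3 h.

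Among the regulators, Srebf2, which encodes the SREBP that mainly serves sterol synthesis, was 7.22, 7.02 and 7.22 at 0 h, 7.31, 7.42 and 7.50 at 1 h, and 7.73, 7.53 and 7.40 at 3 h in knockout cells. The wild-type levels were 7.34, 7.29 and 6.85 at 0 h, 7.38, 7.50 and 7.23 at 1 h, and 7.44, 7.45 and 7.63 at 3 h. In both genotypes the 3 h arrays lay above the 0 h arrays. The 3 h difference was 0.40 ± 0.13 in knockout cells (1.32-fold, limma adjusted p = 0.03) and 0.34 ± 0.13 in wild-type cells (adjusted p = 0.0689). Its other kept probe gave 0.05 and −0.06 (adjusted p = 0.873 and 0.824), so the call rests on 1 of its probes. It was also lost without any one of knockout 0 h array 2 or knockout 3 h arrays 1 or 2 (adjusted p = 0.057 to 0.137). Scaling to the median of all probes (0.24, adjusted p = 0.338) and averaging the kept probes (0.22, adjusted p = 0.0806) lost it too.

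Srebf1, the SREBP that mainly serves fatty acid synthesis, read 4.71, 4.88 and 4.54 at 0 h, 4.63, 4.88 and 4.59 at 1 h, and 4.70, 4.79 and 4.92 at 3 h in knockout cells, close to background. The wild-type arrays read 5.10, 4.67 and 5.21, then 5.05, 4.74 and 4.99, and then 4.86, 4.87 and 5.05, and overlapped the knockout arrays at each time. Scap, the escort gene, was flat on its brightest probe, with 7.39, 7.38 and 7.25 at 0 h, 7.41, 7.23 and 7.32 at 1 h, and 7.26, 7.48 and 7.33 at 3 h in knockout cells. Its wild-type levels were 7.37, 7.34 and 7.25, then 7.35, 7.31 and 7.13, and then 7.20, 7.47 and 7.63. Insig2, whose product retains SCAP as INSIG1 does but which is not a strong SREBP target, was 8.70, 8.69 and 8.48 at 0 h, 8.43, 8.47 and 8.45 at 1 h, and 8.47, 8.28 and 8.42 at 3 h in knockout cells. Its wild-type levels were 8.45, 8.57 and 8.72 at 0 h, 8.33, 8.46 and 8.57 at 1 h, and 8.39, 8.37 and 8.45 at 3 h. Its differences from 0 h were −0.17 at 1 h and −0.23 at 3 h in knockout cells and −0.13 and −0.18 in wild-type cells, none called (limma adjusted p = 0.113 to 0.67). None of Srebf1, Scap and Insig2 was called in any of the 11 comparisons, which also set 3 h against 1 h and the genotypes against each other.

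Of the fatty acid genes Elovl6 alone was called, in wild-type cells at 3 h. Elovl6, the elongase that extends palmitate, was 7.20, 6.94 and 7.01 at 0 h, 7.01, 7.09 and 7.06 at 1 h, and 6.77, 6.57 and 6.85 at 3 h in knockout cells. Wild-type values were 7.32, 7.42 and 7.59 at 0 h, 7.39, 7.17 and 7.51 at 1 h, and 6.95, 7.22 and 7.06 at 3 h. The 3 h arrays lay below the 0 h arrays in both genotypes, and the knockout arrays lay below the wild-type arrays at every time. Elovl6 fell in wild-type cells by 0.37 ± 0.11 at 3 h (limma adjusted p = 0.0296), with −0.32 ± 0.11 in knockout cells (adjusted p = 0.054, not called). The wild-type call was lost without any one of wild-type 0 h arrays 2 or 3 or wild-type 3 h arrays 1 or 3 (adjusted p = 0.0659 to 0.151). It was lost with the compared arrays alone as well (adjusted p = 0.0507).

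Scd1, the stearoyl-CoA desaturase gene, was 8.78, 8.73 and 8.85 at 0 h, 8.93, 8.83 and 8.90 at 1 h, and 8.83, 9.06 and 8.97 at 3 h in knockout cells. The wild-type arrays read 8.78, 9.02 and 8.99, then 8.89, 8.86 and 8.95, and then 9.07, 9.02 and 9.16, and overlapped the knockout arrays at each time. Its differences from 0 h were 0.11 at 1 h and 0.17 at 3 h in knockout cells, and −0.03 and 0.15 in wild-type cells, with all 95% intervals inside 1.5-fold. Scd2, its paralogue, spread more, with 7.50, 7.72 and 7.70 at 0 h, 7.31, 7.60 and 7.54 at 1 h, and 7.16, 7.49 and 7.54 at 3 h in knockout cells. Wild-type Scd2 was 7.40, 8.13 and 7.28, then 7.56, 7.80 and 7.34, and then 7.45, 7.70 and 7.65, with array 2 at 0 h highest of all. Acly, which encodes the lyase that supplies acetyl-CoA, read 10.56 to 11.09 in knockout and 10.68 to 11.15 in wild-type cells. Fasn lay at the edge of detection, with 4.54, 4.79 and 4.72 at 0 h, 4.40, 4.26 and 5.06 at 1 h, and 4.28, 4.59 and 4.56 at 3 h in knockout cells. Its wild-type arrays read 4.43, 4.35 and 4.63, then 4.31, 4.53 and 4.59, and then 4.50, 4.45 and 4.65. None of Scd1, Scd2, Acly and Fasn was called in any comparison.

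Between knockout and wild-type cells no tested gene of the pathway passed the threshold at any time. By limma 0 of 26 genes were called at 0 h, 1 h and 3 h, where 1.85%, 2.2% and 4.97% of all tested genes were, and 5, 3 and 3 of the 26 had an unadjusted p below 0.05, or 19.2%, 11.5% and 11.5%, against 15.4%, 13% and 17% of all tested genes. Among the markers Nes was higher in knockout cells at 1 h (0.45, adjusted p = 0.0317) and 3 h (0.59, adjusted p = 0.00198) and Pdgfra lower at 1 h (−0.52, adjusted p = 0.0267), no marker was called at 0 h, and their part in these values was not tested. The widest differences at 0 h were lower in knockout cells, with −0.52 ± 0.14 for Lss (limma adjusted p = 0.0582), −0.50 ± 0.14 for Msmo1 (adjusted p = 0.0785) and −0.39 ± 0.11 for Elovl6 (adjusted p = 0.0764). In untreated cells 17 of 26 genes were lower in the knockout, and the median was −0.14 against 0.01 over all tested genes. The share higher in the knockout was 34.6% of the 26, against 51.8% of all tested genes. Elovl6 was lower by a similar amount at 1 h (−0.30, adjusted p = 0.203) and 3 h (−0.35, adjusted p = 0.0852). At 1 h and 3 h 14 of 26 genes were lower, and the medians were −0.01 and −0.02. The share higher was 46.2% of the 26 at both times, close to the 47% and 46% of all tested genes. Of the 22 genes detected on every array, the 95% interval stayed inside 1.5-fold in either direction for 18 at 0 h (all but Lss, Msmo1, Insig1 and Elovl6), 21 at 1 h (all but Pmvk) and 21 at 3 h (all but Lss). The count at 0 h was the least secure, since it was 0 to 9 over the alternative settings. At that time Lss and Msmo1 were each called lower in 6 of 17 settings and Elovl6 in 4 of 17.

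**Figure D5:**
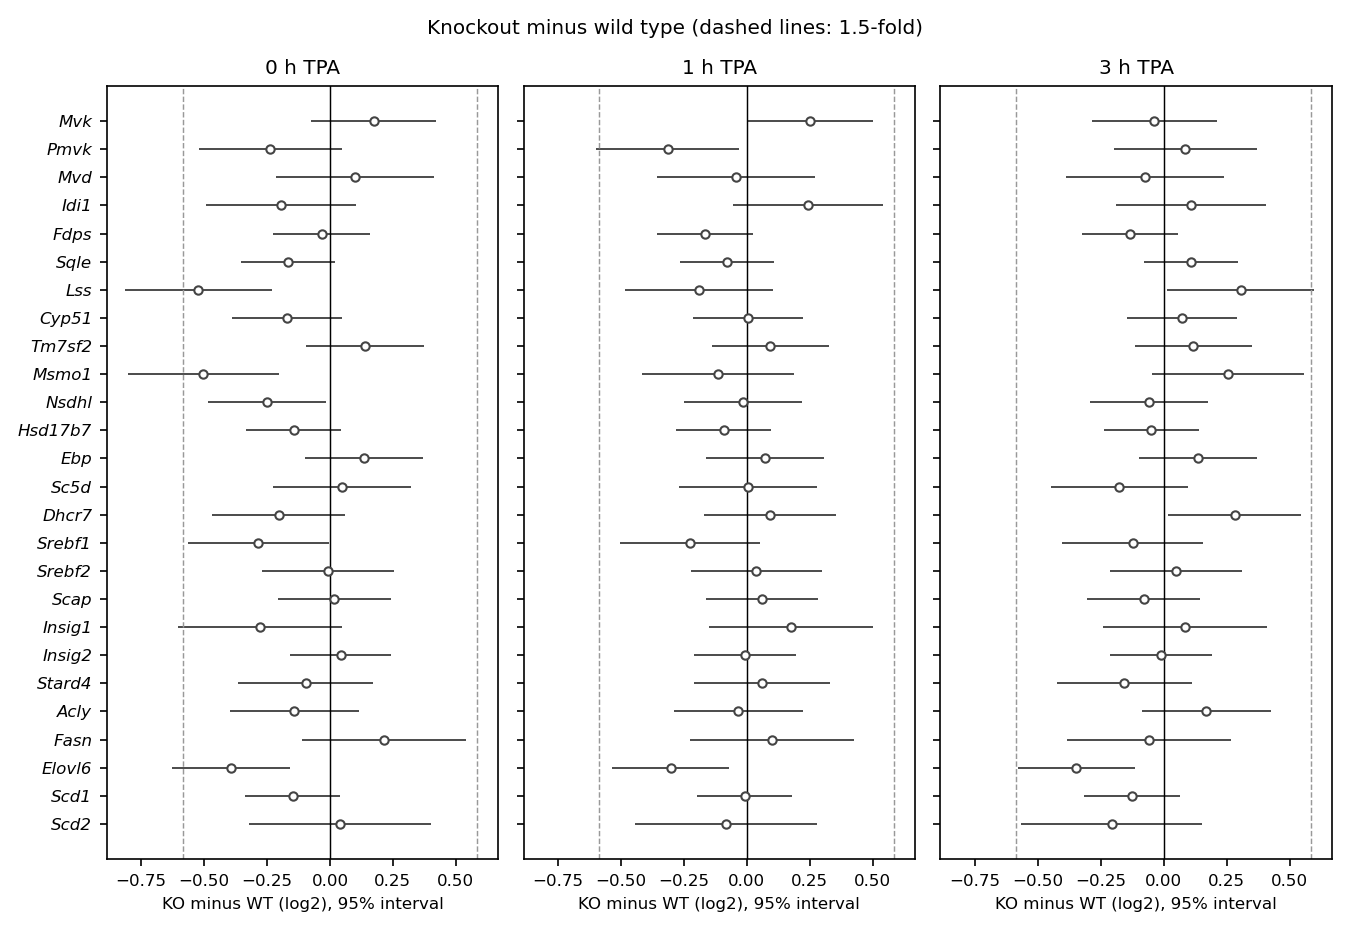
Log2 difference of knockout minus wild-type cells for the 26 tested genes at 0 h, 1 h and 3 h of TPA, with bars for 95% intervals and dashed lines at 1.5-fold. None was called, and Lss, Msmo1 and Elovl6 lie lowest at 0 h, at −0.52, −0.50 and −0.39.

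The TPA responses themselves were compared between the genotypes as an interaction. None of the 26 genes was called by limma at 1 h or at 3 h, where 0.0275% and 0.358% of all tested genes were, and 1 and 4 had an unadjusted p below 0.05, or 3.85% and 15.4%, against 5.87% and 10% of all tested genes. For Stard4 the 1 h responses were 0.16 apart (95% interval −0.22 to 0.54, adjusted p = 0.942), and those of Idi1 0.44 apart (0.02 to 0.86, adjusted p = 0.834). Those of Insig1 were 0.45 apart on its brightest probe (−0.01 to 0.91, adjusted p = 0.84). On ILMN_2606693 and ILMN_1245272 they were 0.24 and 0.32 apart (adjusted p = 0.913 and 0.881 over the probes). At 3 h the differences with an unadjusted p below 0.05 were those of Lss and Msmo1 given above, that of Dhcr7, the last reductase gene of the path, at 0.49 (0.11 to 0.86, adjusted p = 0.371), and that of Sqle at 0.28 (0.01 to 0.54, adjusted p = 0.48). Insig1 stood at 0.36 (−0.10 to 0.82, adjusted p = 0.604). At 3 h the interval reached beyond 1.5-fold for 9 of the 22 genes detected on every array, so a difference of that size could not be resolved for these.

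Other genes of cholesterol and lipid handling were read from a list of 30, of which 19 were tested. At 1 h Ch25h rose in knockout cells (1 of 19 called, against 5.41% of all tested genes) and 0 were called in wild-type cells (against 3.38%), with 2 and 1 at an unadjusted p below 0.05 by limma, or 10.5% and 5.26%, against 15.9% and 13.2% of all genes. At 3 h 2 were higher and 1 lower in knockout cells, and 1 was higher and 2 lower in wild-type cells, or 3 of 19 in each, against 18.4% and 16% of all genes. Between the genotypes 1 was lower in knockout cells at 0 h, 1 higher at 1 h and 0 called at 3 h, against 1.85%, 2.2% and 4.97% of all genes, with 0 of 19 at an unadjusted p below 0.05 at 3 h by limma, against 17%. Ch25h encodes cholesterol 25-hydroxylase, whose product, 25-hydroxycholesterol, binds INSIG proteins and holds SREBP processing back. It was 8.37, 8.29 and 8.43 at 0 h, 9.40, 9.33 and 9.29 at 1 h, and 7.54, 7.62 and 7.62 at 3 h in knockout cells. Wild-type arrays read 8.05, 7.85 and 8.41 at 0 h, 8.42, 8.16 and 8.51 at 1 h, and 7.63, 7.63 and 7.72 at 3 h. Every knockout 1 h array lay above every other array of the series. The 1 h difference was 0.98 ± 0.12 in knockout cells (1.97-fold, limma adjusted p = 6.68e-06) and 0.26 ± 0.12 in wild-type cells (adjusted p = 0.331). At 1 h the knockout was higher than the wild type by 0.97 ± 0.12 (1.96-fold, adjusted p = 4.95e-05), and this call held in all 17 alternatives. The difference between the 2 responses was 0.71 ± 0.17 and was not called (adjusted p = 0.358), although it ranked 10 of 10902 by p. By 3 h Ch25h had fallen below 0 h, by 0.77 in knockout (adjusted p = 5.14e-05) and by 0.45 in wild-type cells (adjusted p = 0.0116, not called without wild-type 0 h array 3 at −0.29, adjusted p = 0.0938).

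Npc1, which exports cholesterol from lysosomes, was higher at 3 h by 0.46 ± 0.11 in knockout cells (limma adjusted p = 0.00557) and by 0.68 ± 0.11 in wild-type cells (adjusted p = 1.61e-04). Acsl3, a long-chain acyl-CoA synthetase gene, was higher at 3 h by 0.60 ± 0.10 in knockout cells (adjusted p = 1.61e-04), with 0.28 in wild-type cells (adjusted p = 0.0674), and was lower in the knockout at 0 h by −0.40 (adjusted p = 0.0444). For both genes the calls were lost when all kept probes of the gene were averaged, at 0.18 and 0.22 for Npc1 and 0.17 and −0.12 for Acsl3. With scaling to the median of all probes the 3 h calls of both genes were lost too. Npc1 then read 0.33 in knockout and 0.24 in wild-type cells (adjusted p = 0.0991 and 0.145), and Acsl3 0.44 in knockout cells (adjusted p = 0.0547). Osbp, the oxysterol-binding protein gene, fell in wild-type cells by 0.46 ± 0.12 at 3 h (adjusted p = 0.0124), with −0.01 in knockout cells (adjusted p = 0.96), and the wild-type call was lost without wild-type 0 h array 3 or wild-type 3 h array 1 (adjusted p = 0.093 and 0.074). The Acsl3 call at 0 h was also lost without any one of knockout 0 h arrays 1, 2 or 3 or wild-type 0 h arrays 2 or 3 (adjusted p = 0.0587 to 0.213). With the compared arrays alone it was lost as well (adjusted p = 0.102).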

How the data were processed

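The authors deposited 1 intensity and 1 detection p-value for each of 45281 probes and 18 arrays. The intensity was a bead summary on a linear scale, not background subtracted, per the file headers and values, and the detection p-value lay in steps of 1 in 936 per the deposited values. RNA was amplified and biotin labelled with an Illumina TotalPrep kit, per the labels' protocols. The scanner software and genome build are not given in the sources used here. The series matrix, deposited by the authors as log2 values, had rank correlation 1 with the intensities within each array and the same distribution on all arrays, and served as an alternative. Slides were not given, so no batch was tested.

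The neqc function of limma 3.58.1 (R 4.3.3) corrected the background by means of the detection p-values, added 16 to each intensity, applied quantile normalization and took log2. Of the probes, 34885 had 1 gene symbol, 18 several and 10378 none listed. Probes detected at p below 0.05 on at least 3 of 18 arrays were kept (20239, of which 17288 had 1 symbol), and each gene was read by its brightest kept probe. A linear model with 6 group means (12 residual degrees of freedom) gave 11 comparisons, called at adjusted p below 0.05. The members and lists were chosen with earlier results of these data known, so counts of members carry no test of their own.

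All 30 members were named, with array values for the regulators, examples of each branch and members called in any comparison. Msmo1, also shown by array, was chosen after its values were seen. Up to 4 called genes a comparison were named from the other lipid genes. The model, without the normalization, was tested on simulated data. The number of arrays limits the precision. Alternatives were the series matrix, no background correction, scaling to the median of all probes or of tested genes, stricter or no detection filter, averaging the kept probes, a trend of the variance with intensity, weights for arrays, fits of the compared groups by themselves, the replicate number as a block, and leaving out each array.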

Additional observations from a re-analysis of the deposited data

How the results depend on the processing

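The counts of called genes among the 26 are small, and several moved by more than 1.5 times. Scaling to the median of all probes moved the all-gene median by −0.20 and −0.10 at 1 h and 3 h in knockout cells, by −0.23 and −0.32 in wild-type cells, by −0.23 and −0.21 for knockout against wild type at 0 h and 1 h, and by 0.21 for the difference of 3 h responses. With that scaling the counts became 1 at 3 h in knockout cells (lower), 0 at 1 h and 13 at 3 h in wild-type cells (all lower), 9 and 2 for knockout against wild type at 0 h and 1 h (all lower), and 1 for the difference of 3 h responses. Relative to the all-gene median the members' median at 3 h in wild-type cells was −0.07, against −0.06 in the reported fit. Under it the shares of higher calls among all genes were 9.1% and 26.5% in knockout and 8.08% and 5.39% in wild-type cells at 1 h and 3 h, against 47.3%, 44.9%, 55.6% and 48.8% here. From 1 h to 3 h they were 74.9% in knockout and 33.3% in wild-type cells, against 53.7% and 53.1%. Over all genes it called 1385 at 1 h in knockout and 1373 and 4822 at 1 h and 3 h in wild-type cells, against 590, 369 and 1744, and 963 and 652 from 1 h to 3 h, against 1519 and 1115. For knockout against wild type it called 1549, 889 and 179 at the 3 times, against 202, 240 and 542 (2% and 2.36% higher at 0 h and 1 h, against 52% and 49.6%), and for the response differences 1 and 36 (100% higher), against 3 and 39 (76.9% higher). Signs turned under it for Sqle (−0.0216) and Stard4 (−0.0248) at 3 h in knockout cells, for Insig1 (−0.10) and Sqle (−0.0595) at 1 h and Insig1 (−0.20) and Stard4 (−0.25) at 3 h in wild-type cells, and with the mean of kept probes for Lss at 3 h in wild-type cells (0.0057), none of them called there.

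With array weights the counts were 6 and 5 at 1 h and 3 h in knockout cells, 4 at 3 h in wild-type cells, 3 and 1 for the genotypes at 0 h and 3 h and 2 for the difference of 3 h responses. With a variance trend they were 5 at 1 h in knockout cells, 4 at 3 h in wild-type cells, 2 for the genotypes at 0 h and 2 for the difference of 3 h responses (Lss and Msmo1 with both settings). The series matrix gave 2, no background correction 1 and the stricter detection filter 1 for the genotypes at 0 h. That filter, and the compared arrays alone, gave 2 from 1 h to 3 h in knockout cells. At 3 h in wild-type cells the compared arrays alone, no detection filter and the mean of kept probes gave 1 each, and that mean gave 2 at 1 h (Insig1 and Stard4). Without 1 array the counts were 1 to 3 at 1 h, 0 to 4 at 3 h and 1 to 1 from 1 h to 3 h in knockout cells, and 1 to 1, 0 to 5 and 0 to 3 in wild-type cells. For the genotypes they were 0 to 2, 0 to 0 and 0 to 1 at 0 h, 1 h and 3 h, and for the response differences 0 to 0 and 0 to 1.

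Over all genes the genotypes at 0 h had 381 calls in the series matrix, 380 without background correction, 346 with a variance trend, 473 with array weights and 129 with the compared arrays alone, against 202. Array weights gave 572 at 1 h in wild-type cells (369 here), 406 and 881 for the genotypes at 1 h and 3 h and 82 for the difference of 3 h responses (240, 542 and 39 here), and the compared arrays alone gave 90, 281 and 24. The share higher at 1 h was then 63.3%, against 49.6%. For the difference of 1 h responses the series matrix and no background correction gave 5 each, against 3, and for that of 3 h responses the series matrix gave 59, with 64.4% higher.

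Deviations from the group means were compared between arrays of different groups. They correlated above 0.1 in 10 of 45 pairs with the same replicate number (median 0.04) and in 6 of 90 pairs with different numbers (median −0.03). Of 18 arrays, 12 correlated best with an array of their own number. The labels do not say what arrays of 1 number share, and the reported fit did not take the numbers as pairs. The replicate block gave 1 called gene for the genotypes at 0 h and 1 for the difference of 3 h responses, against 0 and 0. In knockout cells it gave 4 each at 1 h and 3 h, against 3 each. The slide as a block was not run because no slide was given. With 3 arrays a group, intervals of 5 to 9 of the 22 genes on every array reached past 1.5-fold in several comparisons, which limits what a missing call shows.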

Other observations

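Some dimmer probes of the pathway passed the threshold where the brightest probe of the gene did not, with p-values adjusted over all kept probes with a single symbol (limma). A second Fdps probe, detected on 10 of 18 arrays, was lower in wild-type cells by −0.65 at 1 h (adjusted p = 5.60e-04) and −0.35 at 3 h (adjusted p = 0.0337), and its differences in knockout cells were −0.28 (adjusted p = 0.199) and −0.23 (adjusted p = 0.175). The brightest Fdps probe read 0.13 and 0.00 in wild-type cells at these times. A second Scap probe, detected on 5 of 18 arrays, was higher at 3 h in knockout cells by 0.41 (adjusted p = 0.0365), with −0.08 in wild-type cells. The dimmest of 4 kept Nsdhl probes was higher at 1 h in knockout cells by 0.37 (adjusted p = 0.047), where the brightest read 0.30 and the other 2 read −0.01 and −0.05.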
